A study of Mus musculus with 6 samples.

Results

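The axon guidance ligands and receptors expressed by mouse neurospheres with mutant or normal ACVR1 are described here. The set was taken by gene symbol alone: every Eph receptor, ephrin, semaphorin of classes 3 to 7, plexin, neuropilin, Slit, Robo, netrin, Unc5 receptor and Dcc listed in the count table. This gave 68 genes of the 17551 in the table, 35 ligands and 33 receptors. Enough reads for a test were present for 62 of them, and 14643 genes were tested in all. Robo4 was present only in the second deposited table, where it was listed at 0 in all 6 libraries.

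Axon guidance molecules are secreted or membrane-bound ligands and the receptors that read them at the tip of a growing axon, where they steer the cytoskeleton towards or away from a source. Ephrins bind Eph receptor tyrosine kinases on neighbouring cells and can signal in both directions. Secreted class 3 semaphorins act through neuropilins paired with plexins, membrane-bound semaphorins mostly act on plexins directly, Slits repel through Robo receptors, and netrins attract through Dcc or repel through Unc5 receptors. The same families are used by neural progenitors and glioma cells for sorting, migration and vessel contact.

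Neurospheres are floating clusters of neural stem and progenitor cells. RNA was sequenced from 3 cultures labelled ACVR1 G328V and 3 labelled ACVR1 WT, all on a C57BL/6 background and all grown with N2 and B27 supplements, EGF and FGF. ACVR1 is a type I receptor of the BMP family, and G328V is a substitution in its kinase domain known from childhood midline glioma. The G328V libraries carry replicate numbers 1, 2 and 3, and the WT libraries carry 1, 3 and 70A. The sample titles add the abbreviations NPAC to the mutant and NP to the WT cultures, which the labels do not spell out, so any further allele or vector in either group, and the animal of origin, is unknown here. Whether the libraries of a group came from separate animals or from separate cultures of one line is not said in the labels, and p-values measure only the spread between these libraries.

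Total counts ranged from 115953495 to 191115532 per library. Acvr1 itself stood at 244, 250 and 650 CPM (read counts scaled to a common library size, with TMM factors) in the mutants, and WT gave 42.4, 100 and 90.7 CPM, so that every G328V library was above every WT library, with a log2 difference of 2.29 (SE 0.55) and an adjusted p of 0.997 in edgeR's quasi-likelihood test. Xist had 76093 to 128424 counts in G328V and 44 to 206 in WT, while Ddx3y had 0 to 6 in G328V and 3119 to 7122 in WT. For that reason genotype and the difference in sex-linked expression cannot be told apart for any member, whether autosomal or X-linked (Efnb1, Plxna3 and Plxnb3). All 8 listed neural stem and progenitor markers were tested and summed to 2425 to 3841 CPM in G328V and 2374 to 5960 CPM in WT. Vim made up most of each sum except in WT replicate 1, where it gave 2712 of 5960 CPM. Sox2 stood at 134 to 237 CPM over the 6 libraries, whereas Fabp7 was at 1313 CPM in WT replicate 1 and under 1 CPM, like Msi1, in WT replicate 3. Markers of other cell types varied between libraries. The oligodendrocyte-lineage list summed to 1047 CPM in WT replicate 1, and 14.5 to 304 CPM elsewhere. Olig1 (615 CPM) and Olig2 (416 CPM) made up nearly all of it and were at most 1.07 and 0.938 CPM in any other library. The other 5 markers did not follow: Pdgfra was lowest in that library, at 9.65 CPM, and the remaining 4 stood there at 3.27 CPM or less. The astrocyte list summed to 1674 CPM in G328V replicate 2 against 34.0 to 209 CPM elsewhere, but Sparcl1 alone gave 1666 CPM of it and the other 5 markers were at 3.82 CPM or less in that library. The neural crest and Schwann list summed to 331 CPM in G328V replicate 1 against 42.9 to 129 CPM elsewhere. Fibroblast and pericyte markers summed to 506 CPM in WT replicate 70A, of which Col3a1 alone gave 455 CPM. Elsewhere they summed to 8.24 to 300 CPM, highest in G328V replicate 3, where Rgs5 alone gave 299 CPM. Neuronal, endothelial and myeloid lists stayed at or under 27.2, 39.5 and 2.15 CPM. The endothelial marker Tie1 had no count in any library except WT replicate 1, where it stood at 0.0325 CPM. In bulk RNA, fewer cells of a type and less RNA per cell cannot be told apart.

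Efna3, Sema3g and Unc5b were the only tested members whose 3 G328V libraries all lay above the 3 WT libraries, and no member lay below in the same way. This was 3 of 62 members, where 5.25% of all tested genes lay apart with G328V higher, 4.45% with G328V lower and 9.7% in either direction, so the members' share was near the background in the first direction and below it in the other. Because BMP receptors act on genes through SMAD proteins, the sequences upstream of these 3 members are shown, from RefSeq on GRCm38.p6, ending at the outermost annotated start. Capitals mark GGAGCC or its reverse complement GGCTCC, letters of a GC-rich element known from BMP-responsive SMAD binding. Efna3 is read from chr3:89322966-89323189 on the minus strand, Sema3g from chr14:31217623-31217859 on the plus strand and Unc5b from chr10:60831582-60831831 on the minus strand.
Efna3: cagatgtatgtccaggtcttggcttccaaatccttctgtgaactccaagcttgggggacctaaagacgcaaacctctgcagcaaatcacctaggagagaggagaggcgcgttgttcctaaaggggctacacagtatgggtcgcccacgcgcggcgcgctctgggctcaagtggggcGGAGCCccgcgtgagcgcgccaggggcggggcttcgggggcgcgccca
Sema3g: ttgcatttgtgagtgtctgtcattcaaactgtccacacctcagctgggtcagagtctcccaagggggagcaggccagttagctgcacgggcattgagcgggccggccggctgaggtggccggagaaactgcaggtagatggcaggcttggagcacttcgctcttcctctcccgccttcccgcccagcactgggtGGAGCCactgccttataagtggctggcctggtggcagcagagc
Unc5b: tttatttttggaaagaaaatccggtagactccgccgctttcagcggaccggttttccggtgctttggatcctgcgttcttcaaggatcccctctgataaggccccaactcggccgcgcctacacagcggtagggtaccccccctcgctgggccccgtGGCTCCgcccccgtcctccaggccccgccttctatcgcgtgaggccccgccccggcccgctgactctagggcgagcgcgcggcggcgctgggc
Each stretch held 1 match. Within the 250 bases before the start, GGAGCC on either strand was found for 26 of the 58 members with a promoter entry (44.8%), against 35.3% of 10267 tested genes and 25.6% of 27025 genes with an entry. The 58 include members that were not tested, so the share over tested genes is of a narrower set. A related element, GGCGCC, was found for 13 of the 58 (22.4%), against 17.0% and 9.57%. These matches describe letters in a window and say nothing about occupancy.

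Efna3, a membrane-anchored ephrin that binds EphA receptors, was measured at 0.863, 6.16 and 5.49 CPM in G328V replicates 1, 2 and 3 (in this order here and below), while WT replicates 1, 3 and 70A gave 0.601, 0.642 and 0.282 CPM. G328V replicate 1 lay just above the WT libraries and the other G328V libraries lay far above. The means were 4.17 ± 2.89 and 0.508 ± 0.197 CPM (SD, n = 3 each), a log2 difference of 3.04 (SE 1.05). Its unadjusted p of 0.0264 was the smallest of all members, and its adjusted p was 0.997 in edgeR's quasi-likelihood test and 0.0613 in DESeq2. The gene lies on chromosome 3 from 89313899 to 89322965 (GRCm38), and 14.1% of its exon length is shared with the annotated gene Gm15998. In the authors' estimated fragments it stood at 105, 405 and 571 in G328V and at 40, 129 and 36 in WT, with a log2 difference of 2.49 in the same test, so the direction was kept but the groups overlapped, G328V replicate 1 being below WT replicate 3. The ratio of counts to fragments was 1.76 in G328V and 1.15 in WT, where WT replicate 3 held 113 counts. This WT ratio was the lowest of all tested members, with Plxnc1 next at 1.46. The neighbouring Efna4 gave 1.99 in G328V and 1.95 in WT. The higher level of Efna3 in every G328V library therefore depends on which of the deposited tables is read.

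Sema3g, a secreted class 3 semaphorin, was measured at 3.32, 0.764 and 0.266 CPM in the mutants and at 0, 0.0739 and 0.126 CPM in WT. All 3 G328V libraries lay above WT, but the level was low throughout: the WT libraries held 0, 13 and 22 counts and G328V replicate 3 held 49. The log2 difference was 4.42 (SE 1.93), with an unadjusted p of 0.0609 and a DESeq2 adjusted p of 0.208. Unc5b, a netrin receptor of the repulsive type, was by contrast among the members with the highest level per exon length, at 74.1 CPM per kb in G328V and 30.3 in WT. It stood at 351, 546 and 494 CPM in the mutants and at 51.3, 194 and 323 CPM in WT, the nearest libraries being G328V replicate 1 and WT replicate 70A. Its means of 464 ± 101 and 190 ± 136 CPM (SD, n = 3 each) gave a log2 difference of 1.29 (SE 0.64), with an unadjusted p of 0.0883. With any 1 library left out, the log2 difference stayed between 2.64 and 3.52 for Efna3, between 2.93 and 5.25 for Sema3g and between 0.82 and 1.91 for Unc5b.

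**Figure D1:**
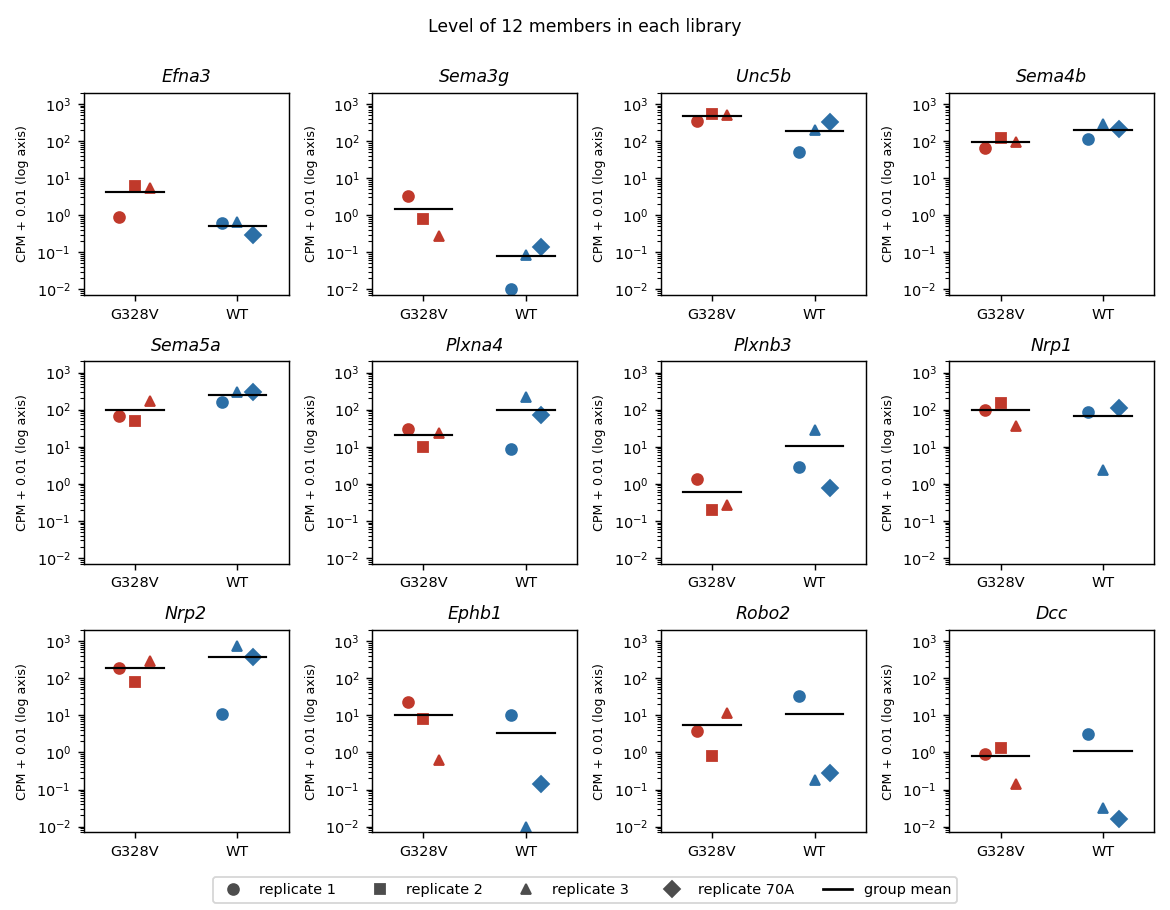
CPM plus 0.01 on a log axis for 12 members, with 1 point per library, shape for the replicate and a line for the group mean. In the panels for Efna3, Sema3g and Unc5b every G328V point is above every WT point, whereas Nrp1, Nrp2, Ephb1, Robo2 and Dcc each have at least 1 WT library far from the others.

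No member passed an adjusted p of 0.05. The smallest adjusted p among the 62 tested members was 0.997 in edgeR's quasi-likelihood test, in which 0% of all 14643 genes passed. The smallest was 0.990 in limma-voom and 0.0613 in DESeq2, which called 0.986% of all genes and no member, leaving 6 members without an adjusted p. At an unadjusted p under 0.05, edgeR gave 4 of 62 members, against 4.06% of all genes (1.88% higher and 2.17% lower), and DESeq2 gave 8 of 68 against 6.55%. The 4 were Efna3, higher in G328V, and Sema4b, Sema5a and Plxnb3, lower. Log2 differences were positive for 29 members and negative for 33, with a median of -0.15, beside -0.0039 over all tested genes. The median SE of a member's log2 difference was 1.15, beside 0.55 over all tested genes. Leaving out 1 library at a time moved the members' median between -0.31 and 0.48, the latter without WT replicate 1, and turned the direction of 33 of the 62 members at least once.

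**Figure D2:**
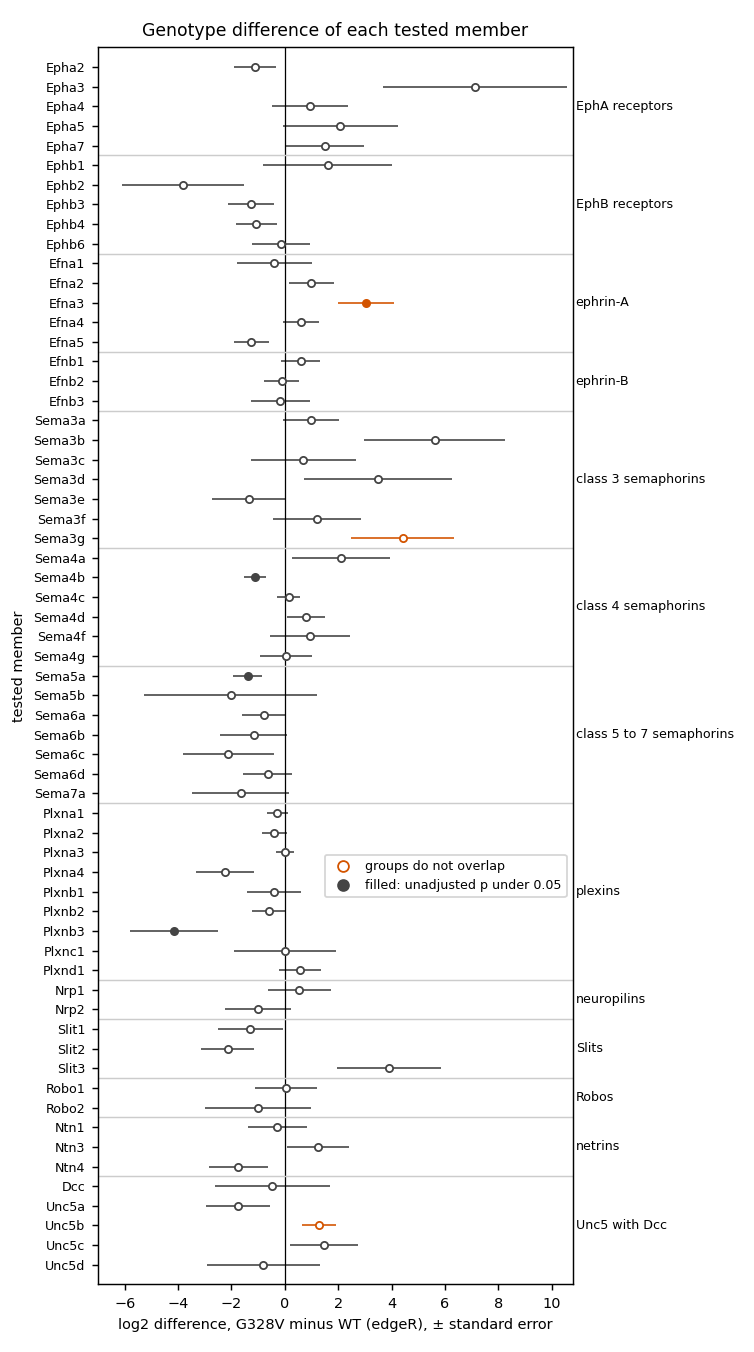
Log2 difference of G328V minus WT with its standard error for the 62 tested members, by class. Filled points have an unadjusted p under 0.05 and orange points have groups that do not overlap; Efna3 is both, and no point passes an adjusted p of 0.05.

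Among the Eph receptors, EphA members leaned towards G328V (4 of 5 tested with a positive difference, median 1.5) and EphB members towards WT (4 of 5 negative, median -1.08). Without G328V replicate 1 the EphA median was -0.74 with 3 of 5 negative, and without WT replicate 1 the EphB median was -0.10. Epha2, the EphA receptor with the highest level per exon length (19.4 CPM per kb in G328V and 42.4 in WT), was measured at 35.4, 76.7 and 160 CPM in G328V and 54.7, 337 and 202 CPM in WT, with overlapping groups. Ephb4, known for its pairing with ephrin-B2 in vessels and progenitors, was even across G328V at 133, 115 and 93.1 CPM. WT libraries stood at 47.1, 485 and 187 CPM, so that WT replicate 1 was below and the other WT libraries above every mutant one. Its log2 difference was -1.08 (SE 0.77).

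Epha3 and Ephb2 each rested on 1 library. Epha3, a receptor for A-type ephrins, reached 323 CPM in G328V replicate 1 and stood at 0.15 and 0.0381 CPM in the other G328V libraries and 1.99, 0.102 and 0.247 CPM in WT. Its log2 difference of 7.12 (SE 3.44) became -3.05 without that library. Ephb2, a receptor for B-type ephrins, stood at 96.4 CPM in WT replicate 1, at 1.44 and 3.58 CPM in the other WT libraries, and at 4.33, 2.80 and 0.00544 CPM in G328V, the last being a single count. Ephb3 was measured at 7.06, 21.9 and 3.27 CPM in G328V and 44.6, 10.5 and 22.4 CPM in WT, again with overlap and with its highest value in WT replicate 1. Epha4, which binds ephrins of both types, and Epha5 were both highest in G328V replicate 2, at 75.1 and 68.4 CPM. Epha5 had 1 count in WT replicate 3. Epha1, Epha6, Epha8 and Epha10 were not tested. Epha1 had 8 counts, all in WT replicate 70A, Epha6 had 28, all in G328V replicate 1, and Epha10 had 40, all in G328V replicate 2. Epha8 gave 10 counts in G328V replicate 1 and 33 in G328V replicate 3, and none elsewhere.

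Of the ephrins besides Efna3, Efna5 was measured at 33.4, 15.8 and 28.9 CPM in G328V and 103, 17.0 and 66.1 CPM in WT. WT replicate 3 lay within the mutant range and the other WT libraries above it, for a log2 difference of -1.25 (SE 0.67). Efnb2, the ephrin-B with the highest level per exon length (18.1 CPM per kb in G328V and 19.6 in WT), was steady in WT at 142, 140 and 121 CPM. In G328V it stood at 50.4, 60.0 and 262 CPM, so 2 mutant libraries lay below WT and 1 above. Efnb1, which is X-linked, was measured at 59.6, 20.1 and 37.6 CPM in G328V and 12.9, 53.1 and 12 CPM in WT, with overlap. Efna1, Efna3 and Efna4 lie side by side on chromosome 3 between 89271733 and 89338028, and they did not share a pattern: Efna1 was lowest in WT replicate 1 (0.374 CPM, against 3.96 to 30.8 CPM elsewhere) and Efna4 was highest in G328V replicate 3 (20.0 CPM) and lowest in WT replicate 3 (3.34 CPM).

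**Figure D3:**
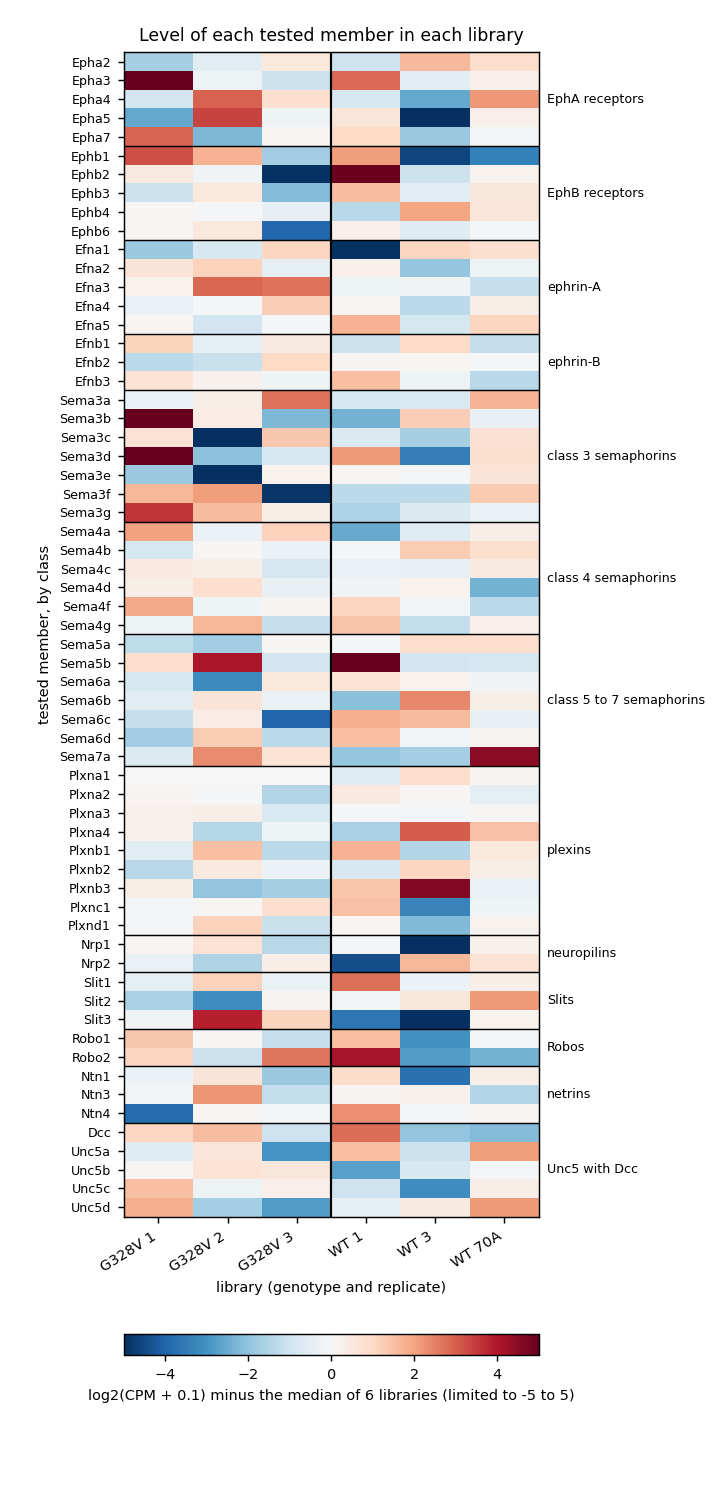
Level of each tested member in each library as log2(CPM + 0.1) minus its median over the 6 libraries, limited to 5 in either direction, with rows by class and a line between genotypes. Dark cells stand singly in many rows, as for Epha3 in G328V 1, Sema3e in G328V 2, Ephb2 in WT 1 and Nrp1 in WT 3.

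Secreted class 3 semaphorins had positive differences for 6 of 7 members (median 1.21), with 1 to 3 of 7 negative when each library was left out in turn. Sema3a, the classical collapsing factor for growth cones, had the highest mutant level per exon length among them, 19.8 CPM per kb. Its libraries were at 78.5, 116 and 630 CPM, with WT at 54.5, 56.8 and 306 CPM. Replicate 3 of G328V and replicate 70A of WT were the high libraries, and the groups overlapped. Sema3b reached 197 CPM in G328V replicate 1 and stayed between 0.154 and 2.99 CPM in the other 5 libraries, and its log2 difference of 5.61 (SE 2.63) became -0.63 without that library. Sema3d showed the same library high, at 73.1 CPM against 0 to 4.73 CPM elsewhere. Epha3, Sema3b and Sema3d were the 3 members at least 10-fold higher in G328V replicate 1 than in every other library, the library in which Tfap2b, a neural crest marker (190 CPM), and Sox10, a marker of neural crest and oligodendrocyte lineage (65.2 CPM), were also highest; their part in the result was not tested.

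Sema3c and Sema3e, neighbours of Sema3a and Sema3d on chromosome 5, were lowest in G328V replicate 2. Sema3c had no count there and 3.73 to 31.0 CPM elsewhere, and Sema3e, a ligand of plexin-D1, had 0.781 CPM there, 37.0 and 150 CPM in the other mutant libraries, and 143, 125 and 212 CPM in WT. Sema3f, which acts mainly through neuropilin-2, dropped out of a different library: G328V replicate 3 gave 0.0761 CPM and the others 1.92 to 21.6 CPM. The genes at their lowest thus differed between libraries of the same genotype.

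Class 4 semaphorins, which are membrane-bound, had 5 of 6 positive differences (median 0.47). Without G328V replicate 1, G328V replicate 2 or WT replicate 3, 3 of 6 were negative, and the median lay between 0.12 and 0.89 over all libraries left out. The exception was Sema4b, which had the highest level per exon length of the class (16.6 CPM per kb in G328V and 35.7 in WT). It stood at 65.4, 122 and 94.0 CPM in G328V and 115, 283 and 206 CPM in WT. Only G328V replicate 2 lay above WT replicate 1, and the other libraries were separated by genotype. Its means of 93.8 ± 28.3 and 201 ± 83.9 CPM (SD, n = 3 each) gave a log2 difference of -1.10 (SE 0.41), with an unadjusted p of 0.0348. Sema4a was low, at 2.17, 0.365 and 1.18 CPM in G328V and 0, 0.261 and 0.597 CPM in WT, and its groups overlapped. Sema4c was among the steadiest members, between 21.0 and 53.4 CPM in all libraries.

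All 7 members of semaphorin classes 5 to 7 had negative differences, from -2.11 to -0.64 with a median of -1.39. The direction held for 5 of 7 without WT replicate 1 and for 6 or 7 of 7 without any other library. Sema5a, a transmembrane semaphorin with thrombospondin repeats, stood at 68.9, 49.8 and 173 CPM in G328V and 160, 302 and 303 CPM in WT. G328V replicate 3 lay between the lowest WT library and the others, and the remaining mutant libraries lay below all WT. The log2 difference was -1.39 (SE 0.54), with an unadjusted p of 0.0416. Sema6d, with the highest level per exon length of these classes (21.6 CPM per kb in G328V and 33.6 in WT), stood at 66.0, 534 and 85.3 CPM in G328V and 625, 198 and 241 CPM in WT, where G328V replicate 2 was in the upper WT range. Its log2 difference of -0.64 was 0.021 without WT replicate 1. Sema6c was measured at 0.647, 2.01 and 0.00544 CPM in G328V and 5.53, 4.81 and 1.17 CPM in WT, with G328V replicate 2 above the lowest WT library. Sema5b and Sema7a were each highest in 1 WT library, at 14.3 CPM in WT replicate 1 and at 89.7 CPM in WT replicate 70A.

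Plexins, the signalling receptors for semaphorins, had a median ratio between the highest and lowest library of 3.08 within G328V and 5.23 within WT, beside 7.19 and 7.83 over all members. Plxna1 stood at 290, 291 and 283 CPM in G328V and 190, 541 and 315 CPM in WT, so that the mutant libraries differed by less from each other than the WT libraries did. Plxna1, Plxna2, Plxna3 and Sema4c were the only 4 of 62 members that varied by less than 4-fold over the 6 libraries, while 53.5% of all tested genes did. Plxnb2, which is known for its role in neural progenitor proliferation and migration, had the highest level per exon length in WT: 110 CPM per kb of exon in WT and 73.0 CPM per kb in G328V. Its libraries were at 249, 912 and 530 CPM in G328V and 367, 1378 and 791 CPM in WT and overlapped widely. Plxna1 was at 31.8 CPM per kb in G328V and 38.5 in WT.

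Plxna4, a co-receptor in semaphorin 3A signalling, and Plxnb3, a Sema5a receptor, had the most negative plexin differences. Plxna4 was measured at 30.0, 9.75 and 22.8 CPM in G328V and 8.43, 214 and 73.0 CPM in WT. WT replicate 1 was the lowest of all libraries and the other WT libraries were above every mutant one, for a log2 difference of -2.24 (SE 1.08). Plxnb3 stood at 1.32, 0.183 and 0.250 CPM in G328V and 2.80, 27.6 and 0.781 CPM in WT, with WT replicate 70A below G328V replicate 1. Its log2 difference of -4.15 (SE 1.64), with an unadjusted p of 0.0432, was -1.61 without WT replicate 3, which held 4855 counts. It is X-linked, and per exon length it was below the other B plexins, at 0.0901 CPM per kb in G328V and 1.60 in WT.

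The neuropilins, ligand-binding partners of the A-type plexins, were each lowest in a different WT library. Nrp1, which binds Sema3a and VEGF, stood at 99.8, 153 and 35.8 CPM in the mutants and at 87.2, 2.40 and 109 CPM in WT. Replicate 3 of WT was the low one and all others lay at or above 35.8 CPM. Nrp2, which prefers Sema3f and Sema3c, stood at 185, 81.0 and 290 CPM in the mutants and at 10.6, 732 and 373 CPM in WT. Here WT replicate 1 was low and the other WT libraries were above every mutant library. Per kb of exon, WT replicate 1 held 8.91 CPM of Nrp1 and 0.897 of Nrp2, and WT replicate 3 held 0.245 and 61.8, so the order of the 2 neuropilins was opposite in these libraries.

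Slit2 and Slit3, secreted ligands of the Robo receptors, lay on opposite sides. Slit2 was measured at 5.16, 1.75 and 17.7 CPM in G328V and 14.4, 23.6 and 70.4 CPM in WT. Only G328V replicate 3 exceeded the lowest WT library, and the log2 difference was -2.14 (SE 1.00) with an unadjusted p of 0.0749. Slit3 stood at 5.4, 93.2 and 13.4 CPM in G328V and 0.406, 0.0511 and 7.0 CPM in WT. WT replicate 70A lay above the lowest mutant library, and the log2 difference was 3.91 (SE 1.96) with an unadjusted p of 0.0915. Slit1 was between 0.519 and 5.50 CPM, highest in WT replicate 1.

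Robo1 and Robo2 are the receptors that read Slits in most neural tissue. Robo1 was measured at 23.2, 9.54 and 4.08 CPM in G328V and 26.0, 1.03 and 8.81 CPM in WT, with near equal means. Robo2 stood at 3.90, 0.806 and 11.9 CPM in the mutants and at 32.7, 0.176 and 0.270 CPM in WT. Both were highest in WT replicate 1 and lowest in WT replicate 3. Robo3 had 16 counts, all in WT replicate 1, and was not tested.

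Netrins gave 1 positive and 2 negative differences. Ntn1, the founding netrin, stood at 89.5, 172 and 30.0 CPM in G328V and 211, 8.25 and 136 CPM in WT, so that WT held both the highest and the lowest library. Ntn4, which sits in basement membranes, reached 176 CPM in WT replicate 1 and only 2.40 CPM in G328V replicate 1, with the other 4 libraries between 33.2 and 37.3 CPM. Ntn3 was at 1.79, 9.47 and 0.783 CPM in G328V and 2.15, 2.27 and 0.643 CPM in WT, high only in G328V replicate 2. Ntn5 gave 9 counts in G328V replicate 1, 76 in G328V replicate 2 and none elsewhere, and was not tested.

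The other netrin receptors were low next to Unc5b. Unc5a was measured at 2.14, 5.01 and 0.332 CPM in G328V and 9.56, 1.53 and 14.3 CPM in WT, with WT replicate 3 inside the mutant range. Unc5c stayed between 0.0852 and 4.51 CPM and Unc5d between 0 and 2.94 CPM. Dcc, the attractive netrin receptor, stood at 0.886, 1.30 and 0.131 CPM in G328V and 3.18, 0.0227 and 0.00574 CPM in WT. Per kb of exon, Dcc was at 0.0587 CPM in G328V and 0.0811 in WT, against 74.1 and 30.3 for Unc5b.

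The members varied more between libraries than most genes did. The ratio of the highest to the lowest library had a median of 28.9 over the 62 members and 3.53 over all tested genes. Among genes with a mean of at least 10 CPM the medians were 13.6 over 39 members and 2.42 over 9386 genes. Within G328V alone, 23 members (37.1%) differed by over 10-fold between libraries against 19.8% of all tested genes, and within WT 26 members (41.9%) against 24.7%. These shares are a description of the set and were not tested.

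**Figure D4:**
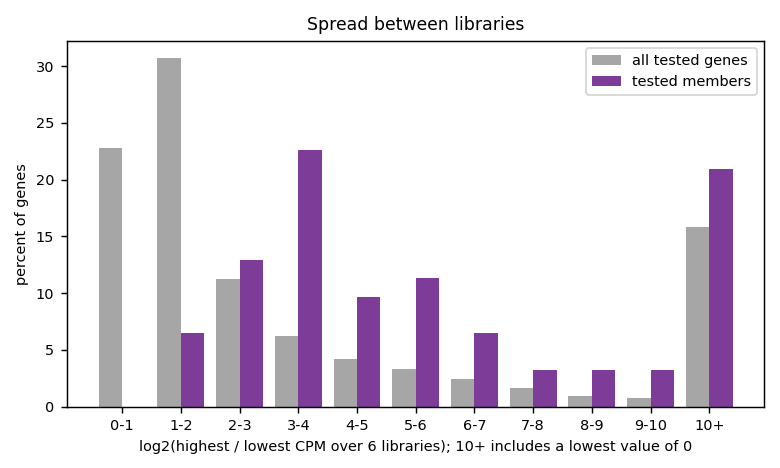
Percent of the 62 tested members (purple) and of all 14643 tested genes (grey) by the log2 ratio of the highest to the lowest CPM over 6 libraries; the last bar includes genes with a library at 0. The members' bars lie to the right of the grey ones, with median ratios of 28.9 and 3.53.

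In 4 members (6.45%) 1 library, at 1 CPM or more, exceeded every other by at least 10-fold, against 2.14% of all tested genes: Epha3, Sema3b and Sema3d in G328V replicate 1 and Ephb2 in WT replicate 1. Counting only genes with at least 1 CPM in the next library, 1 library was at least 10-fold below every other in 9 members (14.5%), against 2.34% of all tested genes. These were Ntn4 in G328V replicate 1, Sema3c and Sema3e in G328V replicate 2, Ephb2, Ephb6 and Sema3f in G328V replicate 3, Efna1 in WT replicate 1, and Epha5 and Nrp1 in WT replicate 3. They were spread over 5 of the 6 libraries and both genotypes.

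WT replicate 1 was the highest library for 17 of the 62 tested members (27.4%) and the lowest for 12 (19.4%), against 23.1% and 23.3% of all tested genes. It was also the library with high Olig1, Olig2 and Fabp7, whose part in the results was not tested. Without it, 16 of 64 tested members (25%) had groups that did not overlap, 8 in each direction, against 23.4% of all tested genes. At an unadjusted p under 0.05 in edgeR there were 9 (14.1%) against 6.75%: Ephb1, Robo2 and Dcc were higher in G328V, and Ephb4, Sema4b, Sema5a, Plxna4, Plxnb3 and Nrp2 were lower. None passed an adjusted p of 0.05 in edgeR (smallest 0.638), where 0% of all genes did. DESeq2 on the same 5 libraries called 6 members, against 4.2% of all genes. This comparison was chosen after the library was seen to stand apart.

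The 6 were receptors, apart from Sema4b. Robo2 rose by a log2 difference of 4.63 (DESeq2 adjusted p = 0.00386), Ephb1 by 7.29 (adjusted p = 0.00428) and Dcc by 5.76 (adjusted p = 0.00792). These 3 rested on near absence in the remaining WT libraries, which held 31 and 47 counts of Robo2, 0 and 23 of Ephb1, and 4 and 1 of Dcc. WT replicate 1 itself held 4030, 1231 and 391 counts of these genes, and with it in the fit Robo2 and Dcc had differences of -1.0 and -0.47. Plxna4 fell by 2.78 (adjusted p = 0.00694), Sema4b fell by 1.39 (adjusted p = 0.0285), and Plxnb3 fell by 4.60 with an adjusted p of 0.05, just under the threshold before rounding. The edgeR adjusted p of these 6 on the same libraries was 0.638 to 0.720.

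**Figure D5:**
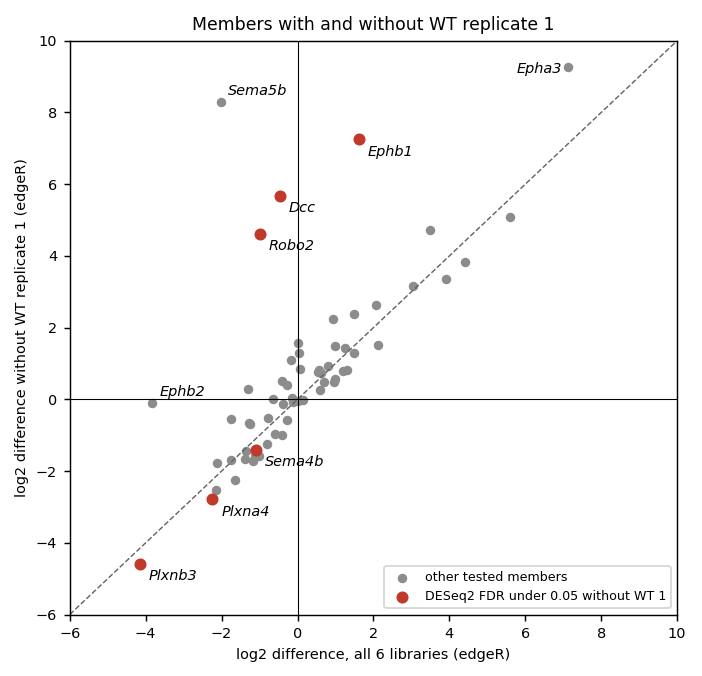
Log2 difference of each tested member from all 6 libraries (x axis) and without WT replicate 1 (y axis), both from edgeR, with the diagonal dashed. Red points are the 6 members DESeq2 called without that library; Robo2 and Dcc cross from below 0 to above it, and Plxna4, Sema4b and Plxnb3 stay near the diagonal.

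Genes that act beside or below these receptors were read from lists of co-receptors, adaptors and effectors. Of 94 listed genes, 90 were tested. None passed an adjusted p of 0.05 in edgeR or DESeq2, and the median log2 difference was -0.07 with 37 positive. At an unadjusted p under 0.05 in edgeR there were 3, against 4.06% of all genes, and all 3 were lower in G328V. Groups did not overlap for 4 genes higher in G328V and 6 lower, of the 90, against 5.25% and 4.45% of all tested genes; only some of these 10 are named. Lrig1, a leucine-rich repeat membrane protein that restrains growth factor receptors and is listed with SLIT-ROBO signalling, stood at 120, 218 and 64.1 CPM in the mutants and at 383, 385 and 384 CPM in WT. Every mutant library was below the near constant WT level, and the log2 difference was -1.52 (SE 0.45) with an unadjusted p of 0.0145. The Rac exchange factor Tiam1, listed with Eph-ephrin signalling, stood at 45.6, 47.1 and 31.4 CPM in G328V and 54.6, 90.8 and 103 CPM in WT, again with no overlap, and had a difference of -1.0 (SE 0.33). Pak1, a kinase activated by Rac and Cdc42, stood at 22.1, 29.5 and 13.4 CPM in G328V and 385, 48.9 and 37.9 CPM in WT, all mutant libraries below all WT. Its difference of -2.86 went with the high value of WT replicate 1. The scaffold Itsn1 and the kinase Pak2 had differences of -0.68 and -0.64, and in both the groups did not overlap. Flrt2, an Unc5 ligand, Dpysl3, a collapsin response mediator, and Mical1, an oxidase that disassembles actin, had differences of 2.04, 1.42 and 1.78 with overlapping groups. The repulsive guidance molecules Rgma and Rgmb, which are also BMP co-receptors, had differences of -0.33 and 0.17. Without WT replicate 1, DESeq2 called 7 of the listed genes, against 4.2% of all genes, and edgeR on the same libraries called 0. Srgap1, a Slit-Robo GTPase-activating protein (log2 difference 3.70), and the adhesion molecules Chl1 (8.41) and Nrcam (3.86) were higher in G328V. The netrin-G gene Ntng1 (9.75), Lrig3 (1.56) and Chn2 (3.30) were also higher, and Tiam1 was lower (-1.23). Positive differences were found for 12 of 25 genes in the semaphorin-plexin list (median -0.03), 9 of 18 in the netrin list (median 0.01), 7 of 16 in the SLIT-ROBO list (median -0.02) and 6 of 17 in the Eph-ephrin list (median -0.16).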

How the data were processed

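Ribosome-depleted RNA was sequenced as paired-end reads, per the labels' protocols. FastQC 0.11.3, TopHat2 2.0.13, Bowtie2 2.2.1 and the genome build mm10 are named in the submitters' processing notes. The authors deposited raw HTSeq counts for 17551 genes and, in a second table, estimated counts from Cufflinks for 23107 genes. Annotation, counting options and strand: not given in the sources used here. Reads of overlapping genes may therefore be shared. The protocols name more than 1 library kit.

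HTSeq counts were tested as deposited in R 4.3.3 with edgeR 4.0.16 (TMM scaling, filterByExpr with a minimum count of 10, robust quasi-likelihood F-test, 2-sided). The test used the older legacy form of the quasi-likelihood fit, with Benjamini-Hochberg adjustment over all 14643 tested genes. Standard errors are the log2 difference divided by the square root of F. DESeq2 1.42.0, limma-voom (limma 3.58.1), the edgeR 4 form of the fit, other scalings and filters, the rounded estimated counts, each library left out in turn and a replicate block were alternatives. The edgeR step was tested on simulated data with known changes. Exon lengths and gene positions are from GENCODE M21 and promoters from RefSeq, both on GRCm38.

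Values in each library are given for members whose groups do not overlap and, in each of 13 classes, for the 2 with the smallest edgeR p and the one with the most counts, which gave 31 members; further members are named where 1 library stands apart, chosen after their values were seen. From each downstream list the 2 genes with the smallest p are named, apart from a few results that are not reported here. The members, lists and rules were chosen with earlier results of these data known. A fold or difference describes CPM of whole libraries. Depth was high enough that counting error is small beside the spread between libraries, except where a library held under 50 counts of a member.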

Additional observations from a re-analysis of the deposited data

How the results depend on the processing

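No alternative on all 6 libraries brought a member past an adjusted p of 0.05, and edgeR called none with any 1 library left out. The edgeR 4 form of the fit gave lower adjusted p-values than the legacy form, such as 0.774 for Sema3g and 0.778 for Efna3. DESeq2, run with a library left out only for WT replicate 1, called members there (6 members and 7 downstream genes, with 15 members at an unadjusted p under 0.05). The count of members at an unadjusted p under 0.05 was 8 with DESeq2, against 6.55% of all genes. In edgeR it was 2 to 9 when each library was left out, against 3.01% to 6.75% of all tested genes. The count of members with groups that do not overlap was 1 when at least 1 CPM in 3 libraries was required, since low genes left the test, and 6 to 16 when a library was left out, against 16.8% to 23.4% of all tested genes. The members' median log2 difference was 0.18 with limma-voom and -0.31 to 0.48 when a library was left out. Both groups have replicate numbers 1 and 3. The libraries sharing a number correlated at 0.181 and 0.226 in their deviations from the group mean and those with different numbers at -0.166 and -0.323; with 2 pairs and no label saying that numbers mark shared animals or days, they were not treated as pairs. The replicate block was fitted only on replicates 1 and 3 of each group, without G328V replicate 2 and WT replicate 70A. No member passed adjustment in that fit, and the directions of Nrp2 (1.39), Robo2 (1.46), Ntn1 (0.31) and Ntn3 (-0.90) turned.

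Among 31 members and 16 alternatives, 24 of 492 values turned direction. With limma-voom these were Nrp2 (0.15), Robo2 (2.08) and Ntn1 (0.34), and with DESeq2 without WT replicate 1 Sema6d (0.048), Robo2 (4.63) and Ntn1 (0.43). When each library was left out, the log2 differences that turned ranged from -3.05 to 9.26 for Epha3, -1.28 to 0.26 for Efnb2, -0.52 to 2.30 for Sema3a, -0.63 to 6.93 for Sema3b, -2.23 to 0.021 for Sema6d, -0.046 to 1.10 for Nrp1, -0.81 to 1.30 for Robo1, -2.23 to 4.62 for Robo2, -0.99 to 0.40 for Ntn1 and -0.39 to 1.74 for Ntn3. The cause was not tested. Depth limits the 25 of 62 tested members with under 50 counts in at least 1 library, among them Efna3, Sema3g, Epha3, Ephb1, Ephb2, Sema6c, Plxnb3, Slit3, Robo2 and Dcc.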
